A study of Mus musculus with 12 samples.

Results

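Purified liver sinusoidal endothelial cells (LSEC) were set against whole liver in mice on chow, with 3 RNA-seq libraries of each, 6 of the 12 libraries of the study. The libraries were taken by their tissue and diet labels, and the genes were the 15766 symbols found in both deposited tables, of 16251 usable symbols in the LSEC table and 16681 in the liver table. All mice were C57BL/6, and the labels give no age, sex or genetic change. Liver was frozen whole, RNA was taken with TRIzol, and the kit was TruSeq v2, which keeps no strand information. For LSEC, cells carrying CD11b (a myeloid surface protein) were removed from the non-parenchymal cells with magnetic beads, and cells carrying CD146 (an endothelial surface protein, encoded by Mcam) were then collected. The library kit of the LSEC samples is not given in the sources used here. A treatment protocol naming 36 weeks of a steatohepatitis diet is attached to every sample, also to those labelled chow, so the age of the chow mice is not clear from it. Tissue, preparation and deposited table are the same split of the 6 libraries, and what each contributes cannot be told apart. The LSEC columns carry no replicate number from the labels, so LSEC libraries 1 to 3 are names by position only.

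LSEC line the sinusoids, the capillaries that run between plates of hepatocytes. They have pores and no complete basement membrane, take up waste proteins and immune complexes from blood through scavenger receptors, and send Wnt and BMP signals that pattern the hepatocytes around them. Hepatocytes make up most of the mass of the liver, with Kupffer cells (resident macrophages), stellate cells (vitamin A storing pericytes), cholangiocytes (bile duct cells) and lymphocytes as the other main types. Whole liver holds RNA of all of these cells, and in bulk samples fewer cells of a type and less RNA per cell cannot be told apart.

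Recovered depth was 18527017 to 19237832 reads per LSEC library and 51665322 to 57397720 per liver library. Genes in both tables held 94.3 to 96.1% of LSEC reads and 99.8% of liver reads. Levels are given as CPM (reads of a gene scaled to library size) after TMM scaling of the 6 libraries together, where 1 read was worth 0.0247 to 0.0409 CPM. Fold changes are LSEC over liver on log2(CPM + 0.1), with the standard error (SE) from limma. A gene was called at a Benjamini-Hochberg adjusted p under 0.05 over all 15766 genes. The labels do not say that libraries of a group came from separate animals, so the p-values reflect only how far these samples differ from each other, which may be technical.

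Of 15766 genes, 5326 were higher in LSEC (33.8%) and 5594 were lower (35.5%). At least 4-fold differences were found for 2014 genes higher (12.8%) and 2532 lower (16.1%), and the median log2 fold change of all genes was 0.03. These shares are the background for every list below. The split depended on scaling: by total reads, the median moved to 0.96, 9114 genes were higher (57.8%) and 3122 lower (19.8%), with 4094 (26.0%) and 1624 (10.3%) at least 4-fold, and by upper quartile the median was 0.30 with 6480 higher and 4739 lower. The 10 genes with most reads took 7.11 to 8.01% of an LSEC library and 16.4 to 17.2% of a liver library. Directions near 0 are therefore relative to the scaling, and where a list changes sign this is stated with it.

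Sinusoidal endothelial markers were higher throughout. All 22 measured markers (Fcn3, also listed, was not in both tables) were higher in LSEC, 21 of them at least 4-fold, with a median log2 fold change of 4.39. Their summed level was 36860 to 37278 CPM in LSEC and 1544 to 1682 CPM in liver. Gpr182, an atypical chemokine receptor of sinusoidal endothelium (mm10 chromosome 10, 127747276 to 127751732), stood at 2005, 2312 and 1876 CPM in LSEC and at 39.5, 39.1 and 43.5 CPM in liver. All LSEC libraries lay far above all liver libraries, with a log2 fold change of 5.66 ± 0.12 (SE; limma, adjusted p = 5.6e-07). Stab2, the receptor that clears hyaluronan from blood (chromosome 10, 86841198 to 87008025), was at 2787, 1904 and 1806 CPM against 103, 93.3 and 111 CPM. Its log2 fold change was 4.38 ± 0.19. Fcgr2b, the Fc receptor that takes up small immune complexes, was at 2300, 3935 and 3219 CPM against 90.1, 83.2 and 93.4 CPM, a log2 fold change of 5.11. Mrc1, the mannose receptor, differed by 4.40 on the log2 scale, Clec4g, a sinusoidal lectin, by 4.57, and Dnase1l3, a secreted nuclease that digests DNA in blood, by 4.999. Lyve1, a hyaluronan-binding protein, differed by 4.06. The weakest of the 22 was Il1r1, the receptor for interleukin 1, with 75.2, 104 and 67.8 CPM against 24.4, 40.1 and 62.3 CPM and a log2 fold change of 1.04. It is the only one of the 22 whose call was lost when single libraries were left out: without LSEC library 1, LSEC library 2, liver library 1 or liver library 2 its adjusted p (limma) was 0.063, 0.079, 0.054 and 0.067.

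General endothelial markers were higher for 22 of 22 genes, with a median log2 fold change of 4.51. Pecam1 (CD31, a junction protein) was at 964, 1046 and 966 CPM in LSEC and 42.5, 38.8 and 43.1 CPM in liver. Mcam, which encodes the CD146 used for the sort, was at 223, 261 and 229 CPM against 9.90, 10.2 and 10.5 CPM, a log2 fold change of 4.53. Cells were chosen by this protein, so its difference is a check of the labels and not a finding. Cdh5, the endothelial cadherin, differed by 4.62, Emcn, a surface sialomucin, by 5.30, and Tek, an angiopoietin receptor, by 4.69. The smallest differences were for Plvap, the protein of endothelial diaphragms, at 2.63, and S1pr1, a receptor for sphingosine phosphate, at 1.71. Itgam, which encodes the CD11b used for depletion, was at 5.65, 1.84 and 1.43 CPM in LSEC and 3.25, 3.12 and 5.70 CPM in liver, was not called, and shares 72.4% of its 50-base stretches with other annotated genes.

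**Figure D1:**
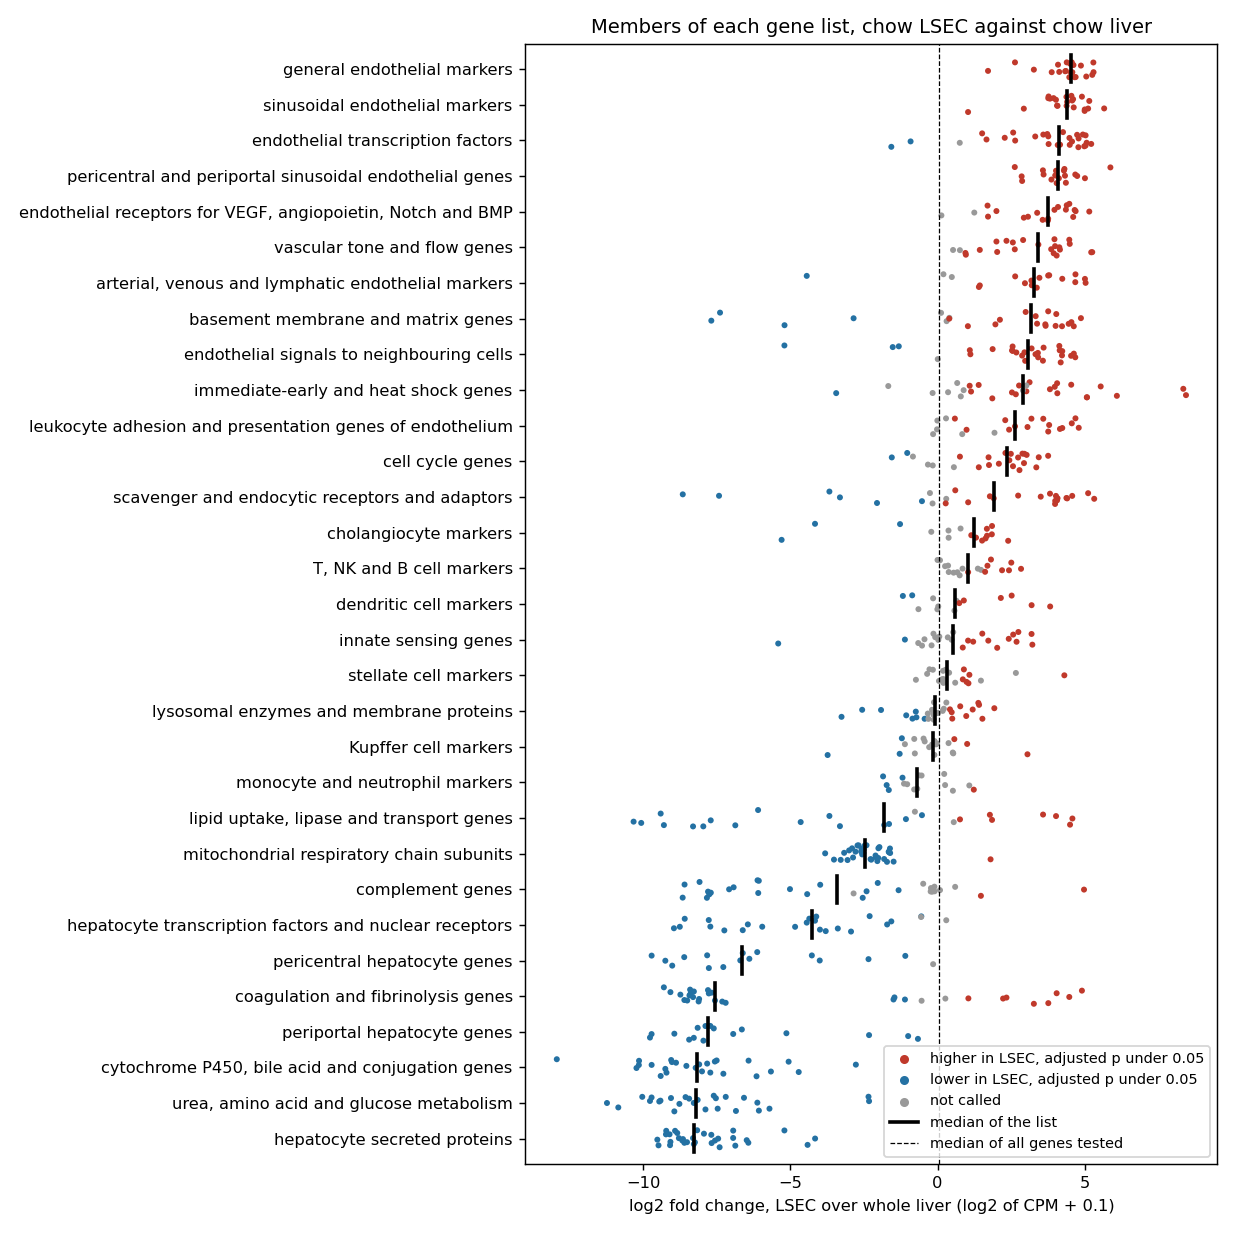
Log2 fold change of each list member, LSEC over whole liver, with 1 row per gene list ordered by its median (black bar) and points coloured by call. Sinusoidal markers have a median of 4.39 and hepatocyte secreted proteins of -8.26, against 0.03 for all genes, while Kupffer and stellate cell markers have medians of -0.14 and 0.33.

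By level per kilobase of the longest annotated transcript, among the 12742 genes that share under 10% of their 50-base stretches with other genes, the first ranks in LSEC went to B2m (4120 CPM per kilobase, the light chain of class I antigen presenting molecules), Igfbp7 (2429, a secreted binding protein of vessels), Apoe (2205, a lipoprotein component), Clec4g (2004) and Aqp1 (1827, a water channel). These genes are named for their rank after their values were seen. Igfbp7 held rank 541 in liver, Clec4g rank 696 and Aqp1 rank 568, whereas Apoe held rank 3 in liver, at 18431 CPM per kilobase. Apoe CPM was 2910, 3218 and 3187 in LSEC and 26055, 28063 and 23735 in liver, a log2 fold change of -3.06.

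Transcription factors known from endothelium were higher for 25 of 28 genes, with a median log2 fold change of 4.12. Gata4, the factor that keeps LSEC sinusoidal rather than continuous, was at 428, 564 and 556 CPM in LSEC and 31.0, 26.4 and 28.6 CPM in liver (log2 fold change 4.16). Erg, an ETS factor of all endothelium, differed by 4.74, Sox18 by 4.93, Sox17 by 5.03, Maf by 3.77 and Tfec by 3.76. The shear-responsive factors Klf2 and Klf4 differed by 4.49 and 5.22, and both were lowest in LSEC library 1: Klf4 stood at 96.3, 271 and 247 CPM. Against the list, Gata6 was lower (log2 fold change -0.92, which became 0.17 with scaling by total reads) and so was Hhex (-1.57), a homeobox factor that hepatocytes also express. Foxf1 was not called, with 5.47, 3.60 and 13.1 CPM against 3.48, 3.99 and 3.75 CPM.

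Arterial, venous and lymphatic markers were higher for 15 of 18 genes (median 3.28). Prox1, the lymphatic factor that hepatocytes also express, was lower, at 4.39, 2.98 and 4.58 CPM in LSEC and 106, 78.7 and 79.5 CPM in liver (-4.44).

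Receptors for vascular signals were higher for 18 of 20 genes, and none was lower. Kdr (VEGF receptor 2) stood at 2855, 2007 and 2420 CPM in LSEC and at 110, 98.9 and 115 CPM in liver, with a log2 fold change of 4.47. Flt4 (VEGF receptor 3) differed by 5.15, Flt1 by 4.66, and the coreceptors Nrp1 and Nrp2 by 3.57 and 3.76. Eng, an auxiliary receptor for BMP9, differed by 4.09 and its partner Acvrl1 by 3.07. Aplnr and Unc5b were not called, and Aplnr was at most 0.572 CPM in any library.

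Signals that endothelium sends to its neighbours were higher for 24 of 28 genes. Bmp2, which together with Bmp6 sets hepcidin output by hepatocytes, was at 1171, 1492 and 1555 CPM against 59.1, 54.7 and 55.3 CPM, a log2 fold change of 4.63. Bmp6 differed by 4.23. Wnt2 and Wnt9b, the Wnt ligands of central vein endothelium, differed by 3.60 and 3.58, and Rspo3, which amplifies Wnt signals, by 2.87. Wnt2 was at 109, 120 and 135 CPM in LSEC and 11.02, 8.98 and 9.72 CPM in liver. Hgf, the hepatocyte growth factor, differed by less: 56.6, 20.4 and 38.3 CPM against 16.6, 15.4 and 16.8 CPM, a log2 fold change of 1.11 that was no longer called without LSEC library 3 or any 1 liver library (limma, adjusted p from 0.068 to 0.081). Lower in LSEC were Igf1 (-5.20), a hormone of hepatocytes, Cxcl12 (-1.52) and Pdgfa (-1.32). With scaling by total reads neither Cxcl12 (-0.42; limma, adjusted p = 0.406) nor Pdgfa (-0.25; limma, adjusted p = 0.268) was called. The call for Cxcl12 was also lost without liver library 2 or liver library 3 (limma, adjusted p = 0.053 and 0.055). Genes known to vary along the sinusoid were higher for 18 of 18 members (median 4.08), from Il1a at 5.87 to Ptgs1 at 2.62. They included periportal ones such as Dll4 (4.68) and Efnb2 (5.005) and pericentral ones such as Kit (4.74) and Thbd (4.04).

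Vascular tone and flow genes were higher for 21 of 23 members. Nos3, the endothelial nitric oxide synthase, was at 125, 115 and 99.6 CPM against 7.48, 7.19 and 8.36 CPM (log2 fold change 3.86). Edn1, the vasoconstrictor endothelin, was at 25.4, 19.9 and 35.3 CPM against 1.496, 1.52 and 1.18 CPM (4.13). The 2 members not called, Ednra and Gucy1a3, are genes of contractile cells, as background, with log2 fold changes of 0.76 and 0.53. Both were called higher without LSEC library 2 (limma, adjusted p = 6.0e-04 and 0.0079). They were also called higher with scaling by total reads or by upper quartile. In each of these settings 23 of 23 members were higher.

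Basement membrane and matrix genes went both ways. Of 24 members 17 were higher, among them Col4a1 (3.67) and Col4a2 (3.76), the main collagen chains of basement membrane, Nid1 (4.23), Lama4 (4.55) and Hspg2, the perlecan core protein (4.63). Hspg2 was at 1237, 1008 and 926 CPM in LSEC and at 40.9, 39.3 and 47.5 CPM in liver. Lower were Fn1 (-5.20), Vtn (-7.68), Col18a1 (-7.39) and Col15a1 (-2.85). Fn1 and Vtn encode fibronectin and vitronectin, which hepatocytes secrete into plasma, and Col18a1 encodes the precursor of endostatin. Col18a1 was at 5.25, 12.95 and 5.36 CPM in LSEC and at 1252, 1248 and 1143 CPM in liver.

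Uptake genes also went both ways. Of 27 scavenger and endocytic genes, 18 were higher, led by Dab2, an adaptor for receptor uptake (5.32), and 6 were lower. Among the lower ones were Asgr1 (-8.65) and Asgr2 (-7.42), the chains of the hepatocyte receptor for galactose-ended proteins, Lrp1 (-3.31), a large endocytic receptor, Colec12 (-2.06) and Scarb1 (-0.53, which became 0.57 with scaling by total reads). Lrp1 stood at 137, 50.5 and 74.8 CPM in LSEC and at 805, 786 and 812 CPM in liver. Of 30 lysosomal genes, 10 were higher and 8 lower, with a median of -0.09 that became 1.01 with scaling by total reads. Lgmn, a lysosomal protease, was higher (1.93), while Ctsh (-3.26) and Npc1 (-2.56) were lower.

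Genes of the plasma systems were split between the tissues. Of 31 coagulation and fibrinolysis genes 8 were higher and 21 lower, and of 30 complement genes 2 were higher and 19 lower. F8, the clotting cofactor VIII (chromosome X, 75172715 to 75382615), was at 1615, 1197 and 1319 CPM in LSEC and at 46.0, 43.1 and 47.7 CPM in liver, a log2 fold change of 4.90 ± 0.14 (limma, adjusted p = 6.4e-07). Its relative F5 was at 2.27, 11.5 and 0.600 CPM in LSEC and at 939, 879 and 900 CPM in liver (-8.40). With F8, the genes higher in LSEC were the anticoagulants Tfpi (4.47), Thbd (4.04), Procr (2.34) and Pros1 (1.05), the plasminogen activators Plau (3.76) and Plat (2.23), and Vwf (3.27), the carrier of factor VIII. The enzymes and fibrinogen chains were lower, from F7 (-8.39), F9 (-8.10), F10 (-8.42) and F2 (-7.77) to Fgb (-8.28). Among complement genes the 2 higher in LSEC encode cell-surface brakes, Cd55 (4.97) and Cd59a (1.47). Cd55 was at 739, 951 and 781 CPM against 25.9, 23.8 and 28.4 CPM. C3 (-7.08), Hc, which encodes C5 (-6.09), and the C8 chains (-7.75 to -8.08) were lower, while the C1q chains, which macrophages make, were not called (-0.10 to -0.18, turning positive with scaling by total reads).

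Lipid handling genes were split as well, with 7 of 25 genes higher and 16 lower. Gpihbp1, which anchors lipoprotein lipase to capillary walls, was at 647, 1009 and 914 CPM against 35.7, 35.2 and 40.6 CPM (4.50), Cd300lg differed by 4.58 and Cd36, a fatty acid receptor, by 1.78. Lipg, known as endothelial lipase, went the other way: 0.755, 2.82 and 0.675 CPM in LSEC and 79.8, 70.2 and 110 CPM in liver, a log2 fold change of -6.09 ± 0.51 (limma, adjusted p = 3.8e-05). Lpl was not called, at 48.7, 38.2 and 15.9 CPM against 46.1, 52.4 and 61.0 CPM. Of 25 innate sensing genes 12 were higher and 2 lower (11 and 5 without LSEC library 1). Tlr3 (3.22), Tlr4 (2.57), Tlr2 (2.42) and Tmem173, which encodes STING (3.19), were higher in LSEC, and Tlr5, the flagellin receptor, was lower (-5.41). Among 21 genes of leukocyte adhesion and antigen presentation 15 were higher, such as Jam2 (4.79), Cxcl9 (3.76) and Vcam1 (2.30), whereas the class II chain H2-Aa was at 81.0, 82.7 and 43.3 CPM against 71.8, 81.3 and 68.0 CPM and was not called.

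Hepatocyte genes made up the other side of the comparison. All 32 genes of secreted hepatocyte proteins were lower in LSEC, with a median log2 fold change of -8.26, as were 26 of 26 genes of cytochrome P450, bile acid and conjugation pathways (-8.15) and 26 of 26 of urea, amino acid and glucose metabolism (-8.21). Alb, which encodes albumin (chromosome 5, 90460897 to 90476602), was at 379, 2312 and 212 CPM in LSEC and at 93577, 105824 and 100568 CPM in liver. LSEC library 2 stood well above the other LSEC libraries, yet below every liver library, and the log2 fold change was -7.45 ± 0.85 (limma, adjusted p = 1.9e-04). The largest differences downward were Cyp4a14 (-13.12) and Cyp4a10 (-12.93), fatty acid hydroxylases driven by PPARA. Cyp4a14 was at 0.791, 2.41 and 0.488 CPM in LSEC and at 10400, 9675 and 9153 CPM in liver. Next came Bhmt (-11.23), Acaa1b (-11.08), Mup7, Igfbp2, Mup14, Mat1a, Mup1 and Slc27a2 (-10.32), where the Mup genes, which encode major urinary proteins, are near-identical copies whose reads may be shared out among them. Hepatocyte transcription factors were lower for 22 of 24 genes with a smaller median of -4.26. Creb3l3 (-8.95), Ppara (-8.59) and Hnf4a (-7.77) were lower, but Cebpa differed by -3.39, Rxra by -2.31 and Nr5a2 by -0.55 (0.55 with scaling by total reads). Nr1h2, a ubiquitous oxysterol receptor, was not called. By position in the lobule, 15 of 16 pericentral hepatocyte genes (median -6.66) and 16 of 16 periportal ones (median -7.80) were lower.

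Some promoters of the secreted protein genes hold the same short sequence. The hexamer GTTAAT (searched on both strands in the 250 bases before the first listed start) was found in 7 of the 23 genes of this list that have a promoter in RefSeq (30.4%), in 7.2% of 1917 genes at least 4-fold lower in LSEC, in 3.17% of 1421 genes at least 4-fold higher, in 4.31% of all 11851 tested genes with a promoter and in 6.52% of all 27025 promoters in the table. Of 16 sinusoidal markers with a promoter none held it. It was 1 of 8 motifs searched. Of the others, the AP-1 site (TGANTCA) was found in 5 of the 23 secreted protein genes (21.7%) and in 4.94% of all tested genes with a promoter, the GATA site (AGATAA) in 2 of the 23, and the remaining 5 in none of them. Those were the HNF4 core site (AAAGTCC), the ETS site (CGGAAGT), the SOX site (AACAAT), the cyclic AMP element (TGACGTC) and the start of the serum response element (CCATATT). Some matches lie in related genes, so they are not independent. Serpina1a and Serpina1b, whose transcripts share 67.4 and 35.8% of their 50-base stretches with other genes, each hold both the hexamer and the AP-1 site. The fibrinogen genes Fga and Fgb both hold the hexamer. The GATA site was found in 6.83% of the genes at least 4-fold higher and 6.49% of all tested genes with a promoter, and the ETS site in 3.59% and 8.84% of them. The 3 secreted protein genes with the hexamer and the highest liver level, Alb, Serpina1b and Fgb, are shown with Mrc1, the sinusoidal marker with the smallest adjusted p among the defining ones that have a promoter in the table. Sequences are from RefSeq (GRCm38.p6), 5' to 3' on the gene's strand and ending 1 base before the start, with the hexamer in capitals. A match is a description of the letters, not of a bound site. The positions are chr5:90460620-90460869, plus strand for Alb, chr12:103738190-103738439, minus strand for Serpina1b, chr3:83049864-83050113, minus strand for Fgb and chr2:14229164-14229413, plus strand for Mrc1.
Alb: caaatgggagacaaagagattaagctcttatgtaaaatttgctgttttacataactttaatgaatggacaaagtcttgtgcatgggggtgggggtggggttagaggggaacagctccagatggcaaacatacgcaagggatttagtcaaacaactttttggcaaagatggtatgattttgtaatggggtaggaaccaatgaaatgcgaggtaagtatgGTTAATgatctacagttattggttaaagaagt
Serpina1b: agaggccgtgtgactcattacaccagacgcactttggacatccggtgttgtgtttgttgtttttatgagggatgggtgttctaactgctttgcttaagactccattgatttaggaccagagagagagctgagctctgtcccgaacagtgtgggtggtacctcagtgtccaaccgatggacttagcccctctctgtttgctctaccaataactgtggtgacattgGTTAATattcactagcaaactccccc
Fgb: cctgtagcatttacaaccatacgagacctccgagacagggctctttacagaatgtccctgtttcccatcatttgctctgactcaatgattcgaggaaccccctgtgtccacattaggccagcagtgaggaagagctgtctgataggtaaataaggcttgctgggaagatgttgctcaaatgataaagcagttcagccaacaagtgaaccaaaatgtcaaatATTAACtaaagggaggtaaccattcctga
Mrc1: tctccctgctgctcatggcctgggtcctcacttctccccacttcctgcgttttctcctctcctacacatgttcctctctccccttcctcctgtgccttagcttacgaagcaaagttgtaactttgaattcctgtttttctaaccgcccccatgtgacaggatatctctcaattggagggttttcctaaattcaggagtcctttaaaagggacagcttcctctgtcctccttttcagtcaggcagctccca
Counted from the start, the hexamer begins at position -32 in Alb, -26 in Serpina1b and -29 in Fgb. In Fgb it lies on the other strand, so the capitals read ATTAAC, its reverse complement. Neither form is in the Mrc1 window.

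Hepatocyte transcripts in LSEC libraries differed by library. Over the 83 genes of the 3 hepatocyte lists with at least 10 CPM in liver, the median level relative to the liver mean was 0.251% in LSEC library 1, 1.56% in library 2 and 0.0642% in library 3. Library 2 was the highest of the LSEC libraries for 83 of the 83 genes, and library 3 the lowest for 69. Cps1, the first enzyme of the urea cycle, shows the order: 11.4, 61.8 and 0.975 CPM in LSEC and 9968, 8314 and 6086 CPM in liver. Without LSEC library 2 the median log2 fold change moved from -8.26 to -9.37 for secreted proteins, from -8.15 to -9.48 for P450, bile acid and conjugation genes and from -8.21 to -9.34 for urea, amino acid and glucose genes. Without LSEC library 3 they were -7.27, -7.10 and -7.27. Every member of the 3 lists was lower without each of these libraries too.

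For some hepatocyte genes the LSEC libraries lay closer together. Of the 83 genes, 14 stood in LSEC library 3 at 10 or more times the median share there, a threshold chosen after the values were seen. Glul, the glutamine synthetase of pericentral hepatocytes, was at 422, 450 and 395 CPM in LSEC and at 2447, 2078 and 1931 CPM in liver, which is 19.6, 20.9 and 18.3% of the liver mean. Sult1a1, Por, Cyp27a1 and Ghr are also among the 14, and Por, which passes electrons to P450 enzymes, was at 50.4, 59.3 and 55.2 CPM in LSEC. The 14 were chosen by their level in library 3, so their closeness between libraries is a description only. Glul shares 15.02% and Gstp1, another of the 14, 62.3% of its 50-base stretches with other genes.

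Tsku, the secreted protein that the study's title names (chromosome 7, 98350668 to 98361328), is among these 14. It was at 10.4, 11.8 and 7.80 CPM in LSEC and at 178, 186 and 288 CPM in liver. All LSEC libraries lay below all liver libraries, with a log2 fold change of -4.41 ± 0.23 (limma, adjusted p = 4.4e-06). Its LSEC level was 4.77, 5.45 and 3.59% of the liver mean, against 0.251, 1.56 and 0.0642% for the median hepatocyte gene. Both are descriptions of 3 libraries, and the source of the Tsku reads in LSEC was not tested.

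**Figure D2:**
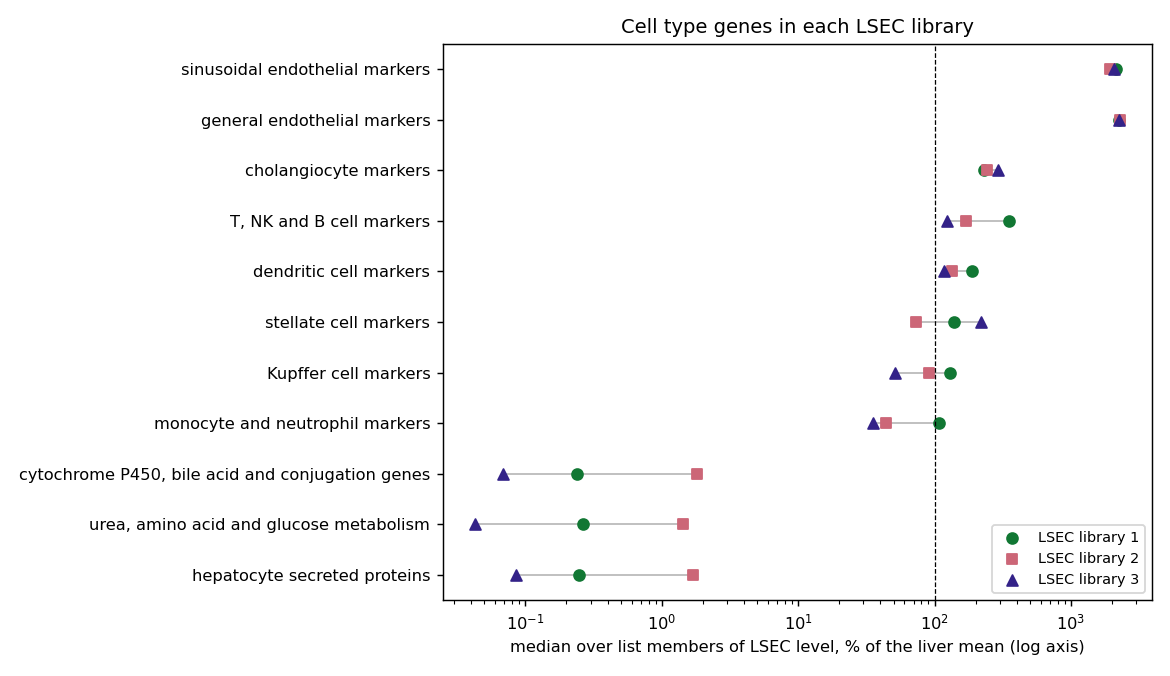
Median over list members of the LSEC level as a percent of the liver mean (log axis) in each LSEC library, by cell type list, with 100% dashed. Sinusoidal markers lie at 2136, 1941 and 2082% in LSEC libraries 1, 2 and 3, secreted hepatocyte proteins at 0.245, 1.70 and 0.0848%, Kupffer cell markers at 129, 91.4 and 50.9% and stellate cell markers at 139, 73.5 and 217%.

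Genes of the other non-parenchymal cells had medians nearer to that of all genes. Of 20 Kupffer cell markers 3 were higher and 3 lower, with a median of -0.14 (0.95 with scaling by total reads). Clec4f, the lectin that defines Kupffer cells, was at 195, 133 and 71.4 CPM in LSEC and 177, 208 and 260 CPM in liver and was not called. LSEC library 1 was the highest and LSEC library 3 the lowest LSEC library for 16 of 20 markers. The summed level was 1249 to 2142 CPM in LSEC and 1639 to 2260 CPM in liver. Without LSEC library 1, 2 markers were higher and 8 lower, and without LSEC library 3, 5 were higher and 3 lower, with a median of 0.25. Of 20 stellate cell markers 6 were higher and none lower (median 0.33, or 1.42 with scaling by total reads), and 14 were lowest in LSEC library 2. Lrat, which esterifies retinol for storage, was at 65.1, 10.5 and 103 CPM against 27.2, 29.9 and 38.4 CPM and was not called. Without LSEC library 2, 11 stellate markers were higher, and without LSEC library 3, 5 were higher, 1 was lower and the median was -0.08. Cyp26b1, a retinoic acid hydroxylase outside the lists, named after its values were seen, was at 901, 43.7 and 1117 CPM in LSEC and 34.3, 27.2 and 29.4 CPM in liver. Its log2 fold change of 3.55 was called (limma, adjusted p = 0.029), but not without LSEC library 1, LSEC library 3 or any 1 liver library (adjusted p from 0.071 to 0.101). Acta2, the smooth muscle actin, was highest in LSEC library 2, at 2.77, 120 and 36.8 CPM in LSEC, and was not called. It was called higher by edgeR's quasi-likelihood test (adjusted p = 0.016) and DESeq2 (adjusted p = 0.0031). The same held with scaling by total reads and without LSEC library 1 (limma, adjusted p = 0.027 and 0.0014).

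Lymphocyte genes were higher for 8 of 19 markers, such as Gzmb, a granzyme (2.83), and Lck (2.43), at summed levels of 43.2 to 100.3 CPM in LSEC and 19.3 to 36.5 CPM in liver. The other 11 were not called, and over all genes 33.8% were higher. Without liver library 1 or liver library 3, 6 markers were higher. Of the 19, 15 were highest in LSEC library 1. The T cell receptor part Cd3e was at 7.66, 3.39 and 1.61 CPM against 1.84, 1.84 and 0.617 CPM and was not called. Of 14 dendritic cell markers 6 were higher, 2 lower and 6 not called, with a median of 0.61 (0.03 without LSEC library 1, with 4 higher; 3 were higher without liver library 2). Clec9a (3.82) and Zbtb46 (3.19) were higher at 38.7 to 67.8 and 28.2 to 45.6 CPM. Xcr1, a receptor of the dendritic cells that carry Clec9a, was at 0.413 to 0.776 CPM and not called. Cholangiocyte markers were higher for 9 of 16 genes, such as Spp1 (1.84) and Epcam (1.68), and lower for 3, among them Slc10a2, a bile acid transporter (-5.30), and Onecut2 (-4.16). Of the 16, 11 were highest in LSEC library 3. Red cell genes were represented only by Alas2 (-7.39) and Klf1 (-5.44), both lower. Of 15 monocyte and neutrophil markers 1 was higher and 4 lower, with a median of -0.69 (0.32 with scaling by total reads), and without LSEC library 1, none was higher and 8 were lower. What these cells add to the LSEC values of other genes was not tested.

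Immediate-early genes were at the top of the fold changes. Among the 10 largest differences upward with at least 10 CPM were Fos (8.44), Fosb (8.34), Ier3 (6.09) and Socs3 (5.54), beside Il1a (5.87), Mecom (5.74), Sema6a (5.66), Gpr182 (5.66), Zfp503 (5.48) and Tiam1 (5.40). The sinusoidal markers reach 5.66 at most. Immediate-early genes are transcribed within minutes of a stimulus, cell isolation included, without new protein. Of 29 immediate-early and heat shock genes, 20 were higher and 1 lower, with a median of 2.90 (19 and 3 without LSEC library 2). Fos was at 215, 1164 and 1341 CPM in LSEC and at 1.15, 1.996 and 2.98 CPM in liver (8.44 ± 0.72; limma, adjusted p = 4.1e-05). Egr1 was at 211, 1223 and 1096 CPM against 27.3, 24.7 and 33.0 CPM (4.54). LSEC library 1 was the lowest LSEC library for 25 of the 29 genes, but still lay above every liver library for Fos, Fosb, Egr1 and Socs3. Within liver, library 3 stood apart for Jun: 30.7, 33.3 and 562 CPM, against 429, 1035 and 863 CPM in LSEC (3.12 ± 1.10; limma, adjusted p = 0.038). Its call was lost without any 1 LSEC library and without liver library 1 or 2 (limma, adjusted p from 0.061 to 0.120), but not without liver library 3, and it was not made by edgeR's quasi-likelihood test (adjusted p = 0.159) or DESeq2 (adjusted p = 0.171).

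Heat shock genes differed among themselves. Hspa1a was at 39.8, 430 and 8.33 CPM in LSEC and 1.84, 1.26 and 1.33 CPM in liver (5.08), and Hspa1b was at 48.8, 494 and 10.8 CPM against 57.4, 47.2 and 46.0 CPM and was not called. Hsp90aa1 was lower (-3.44), at 10.1, 42.3 and 11.5 CPM against 193, 173 and 192 CPM. Hspa1a, Hspa1b and Hsp90aa1 share 58.5 to 66.3% of their 50-base stretches with other genes, so their reads may be divided between copies. Freezing of liver and dissociation and bead sorting of LSEC follow the same split as tissue, and their part in these values cannot be told apart from it.

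**Figure D3:**
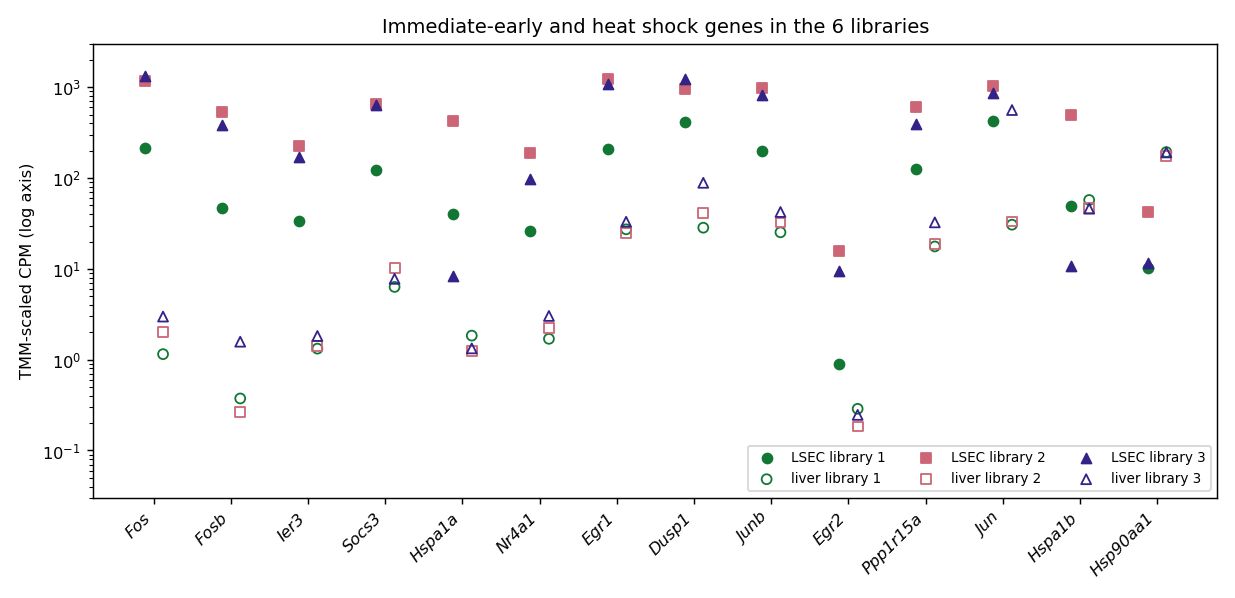
TMM-scaled CPM (log axis) of 14 immediate-early and heat shock genes in the 3 LSEC libraries (filled) and 3 liver libraries (open). For Fos, Fosb, Ier3 and Socs3 all LSEC libraries lie above all liver libraries with LSEC library 1 lowest, while Hspa1b overlaps and Hsp90aa1 is lower in LSEC.

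Genes under a common, broad function label were compared in 23 pairs of a form used by liver and another form. Some pairs share only a class, such as amino acid transport for Slc38a4 and Slc7a5. Opposite calls are therefore not all between forms of the same enzyme. The liver form was lower in LSEC in 22 pairs and not called in 1. The other form was higher in 13, lower in 5 and not called in 5, so that the forms were called in opposite directions in 12 pairs. In glycolysis, pyruvate kinase was called in opposite directions for Pklr (-6.57) and Pkm (2.39), with Pkm at 169, 188 and 170 CPM in LSEC and 31.3, 31.9 and 36.8 CPM in liver. So was lactate dehydrogenase for Ldha (-4.48) and Ldhb (2.71). Phosphofructokinase was not, since Pfkl was not called (-0.05, which became 1.05 with scaling by total reads) while Pfkp was higher (2.31). Pklr, Pkm, Ldha and Ldhb share 16.6 to 34.4% of their 50-base stretches with other genes. Opposite calls were also found for the glycogen phosphorylases Pygl (-5.57) and Pygb (2.37), the fatty acid binding proteins Fabp1 (-7.70) and Fabp4 (4.02), the connexins Gjb1 (-6.82) and Gja4 (3.37) and the claudins Cldn1 (-6.01) and Cldn5 (4.50). Opposite calls do not show that the main form differed. Per kilobase of the longest annotated transcript, Ldhb stood at 0.48 times the level of Ldha within LSEC. Cldn1 stood at 0.947 times that of Cldn5 within liver. For Fabp4 and Fabp1 the order within LSEC depended on the length used. Fabp4 had the higher CPM, at 193, 393 and 273 against 21.5, 122 and 5.36 for Fabp1. Per kilobase it stood at 0.754 times Fabp1, with longest annotated transcripts of 4231 and 553 bases. Both forms were lower for glucose transport, Slc2a2 (-6.07) and Slc2a1 (-0.99, which became 0.10 with scaling by total reads). Of the other forms counted as higher, Rbp7 and Cox6a2 stayed under 1 CPM in every library, and both are among the 12 pairs. Rbp7 was not called by edgeR's quasi-likelihood test (adjusted p = 0.057) or DESeq2 (adjusted p = 0.173). The call of Cox6a2 depended on single libraries, as given below.

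**Figure D4:**
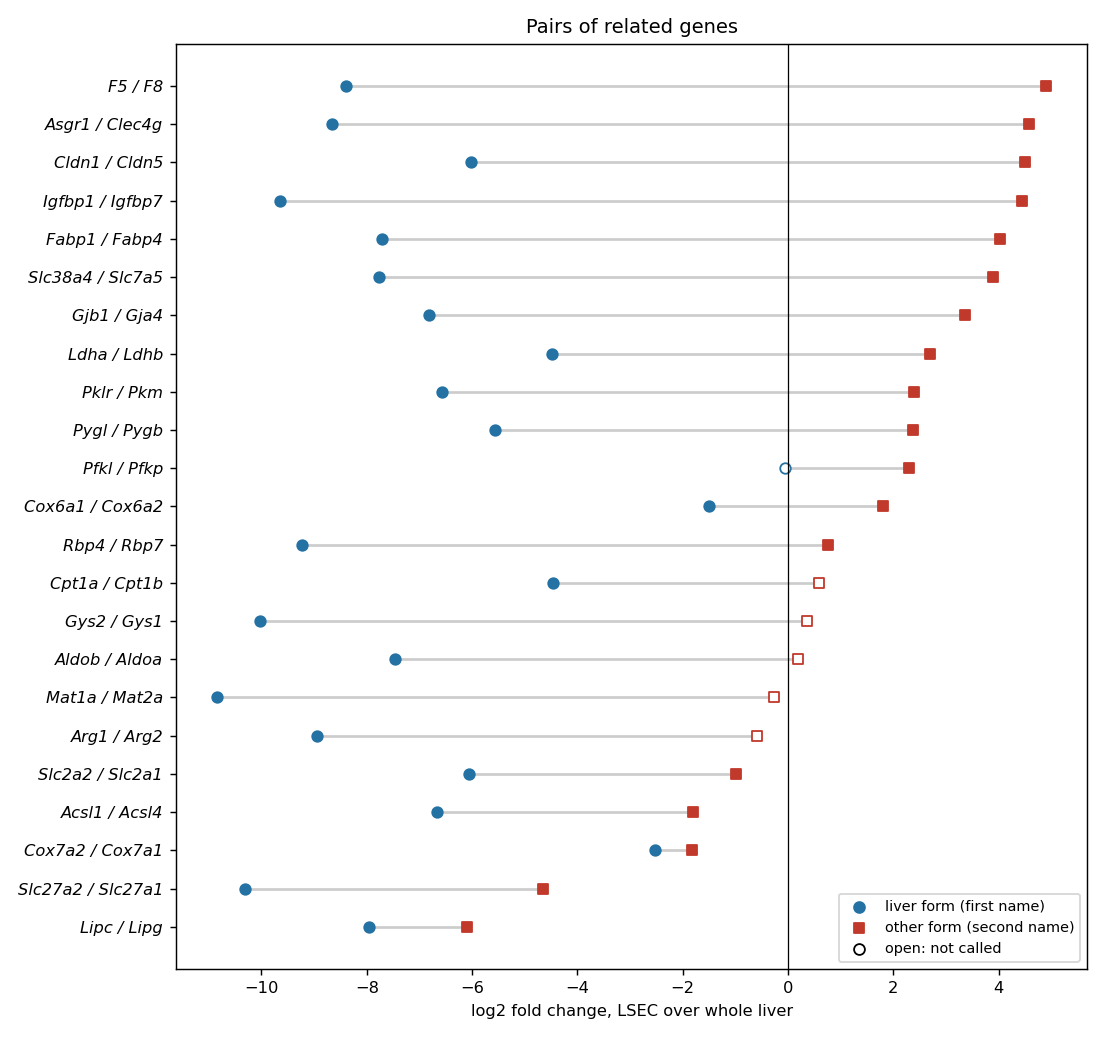
Log2 fold change, LSEC over whole liver, for the liver form (circle, first name) and the other form (square, second name) of 23 gene pairs, with open symbols for genes not called. In 12 pairs the liver form is called lower and the other form higher, and in 5 pairs both are called lower. The 12 include Rbp4 with Rbp7 and Cox6a1 with Cox6a2, whose other forms stayed under 1 CPM.

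Subunits of the mitochondrial respiratory chain encoded in the nucleus were lower for 34 of 35 genes, with a median of -2.47 (-1.37 with scaling by total reads). The 34 ranged from -1.49 (Cox6a1) to -3.82 (Uqcrfs1). Atp5b, the catalytic subunit of ATP synthase, was at 261, 390 and 357 CPM in LSEC and 2177, 2192 and 2012 CPM in liver (-2.68). The exception, Cox6a2, a muscle form, stayed under 1 CPM and lost its call without LSEC library 1 (limma, adjusted p = 0.126), LSEC library 3 or any liver library. Cell cycle genes were higher for 18 of 24 members and lower for 2 (median 2.37): Mki67, a proliferation marker, was at 23.1, 15.6 and 13.5 CPM against 1.64, 1.81 and 3.11 CPM (2.95).

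Genes with ribosomal protein names were mostly lower, over a wide range. Of 82, 75 were lower in LSEC, 2 higher and 5 not called, with a median of -3.49. Rps29 was at a mean of 0.184 CPM in LSEC and 202 CPM in liver, while Rps3 (-0.18) was not called at 419 and 467 CPM, and Rpl4 was at 564 and 850 CPM (-0.61, which became 0.50 with scaling by total reads). The log2 fold change moved with the share of 50-base stretches that a gene has in common with other annotated genes (Spearman's rho = -0.46 across the 82 genes, which are not independent), and 68 of the 82 share 10% or more. It also moved with transcript length over all genes: among genes sharing under 10% with at least 1 CPM in either group, the median was -1.21 for the 314 genes with transcripts up to 1 kb and 0.43 for the 1014 of 6 to 8 kb, with 0.35 for the 646 over 8 kb. The respiratory chain list has a median transcript of 1363 bases, and genes of 1 to 2 kb had a median of -0.49, against -2.34 for the 28 respiratory members that share under 10%. The sinusoidal markers have a median transcript of 4734 bases. Levels of genes with near-identical copies are uncertain, and the part of length or shared sequence in any result was not tested.

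**Figure D5:**
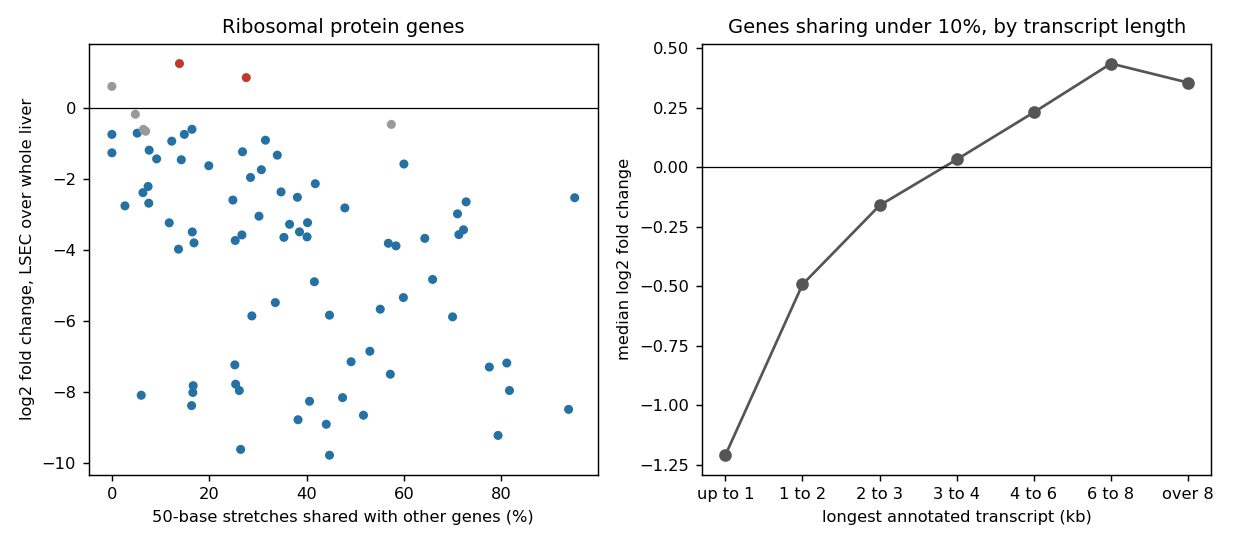
Left, log2 fold change of 82 genes with ribosomal protein names against the percent of their 50-base stretches found in other annotated genes (blue lower in LSEC, red higher, grey not called). Right, median log2 fold change by longest transcript among genes sharing under 10%, rising from -1.21 up to 1 kb to 0.43 at 6 to 8 kb, with 0.35 over 8 kb.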

How the data were processed

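Gene-level RNA-seq values of 3 chow LSEC libraries and 3 chow liver libraries were used, each group from its own deposited table. The tools FastQC, STAR, HTSeq and DESeq2 and the build mm10 are named per the submitters' processing notes, without version, role or settings. The authors also deposited log2 fold changes and p-values of NASH against chow in these tables, which were not used here. The values the authors deposited are a signal: read counts divided by a size factor per library. Each column, divided by its lowest nonzero value, held whole reads for 100% of entries (tolerance 0.01), and these recovered counts were rescaled together. Of the symbols, 22 in each table were damaged to dates and left out, and 485 found only in the LSEC table and 915 only in the liver table were not compared.

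The test was limma 3.58.1 (R 4.3.3) with a trended prior on log2(CPM + 0.1), TMM factors from edgeR 4.0.16, no filter and Benjamini-Hochberg adjustment over 15766 genes. Alternatives were edgeR's quasi-likelihood test and DESeq2 1.42.0 on recovered reads, other scalings, pseudocounts, filters and adjustments, and leaving out each library. The fit was tested on simulated data in which few genes changed, equally up and down, from a mean profile common to both groups. It therefore does not check the scaling between samples as unlike as these. Shared sequence is the percent of a gene's 50-base stretches found in other annotated genes, with 99.23% of symbols matched to the annotation. Precision is set by 3 libraries a group. Some genes and gene pairs are not reported here. Members and gene lists were chosen with earlier results of these data known. Genes were named by rule: the 10 largest differences each way with at least 10 CPM, in each list at most 8 members, those of smallest adjusted p, members called against their list, and the genes with the widest spread between LSEC libraries; other members are named as examples chosen after their values were seen.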

Additional observations from a re-analysis of the deposited data

Results flagged for a closer look

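Reads were present in data that the comparison could not use. The LSEC table holds 24 mitochondrially encoded genes that are not rows of the liver table used here. They took 698195 reads in LSEC library 1 (3.72% of reads), 1022893 in library 2 (5.52%) and 834682 in library 3 (4.34%), and no liver value can be set beside them.

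Over 12 genes of pancreatic digestive enzymes, a set chosen after the data were seen, the LSEC libraries held 3, 5 and 545 reads. Library 3 alone thus held nearly all of them, at 0.00283% of its reads, and 4 of the 12 genes are rows of the liver table. The source of these reads was not tested.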

How the results depend on the processing

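The counts of genes depended most on scaling and on the adjustment. With scaling by total reads, 9114 genes were higher, 3122 lower, 4094 at least 4-fold higher and 1624 at least 4-fold lower. With Holm adjustment the 4 counts were 1255, 1512, 1117 and 1380. Leaving out 1 library gave 4726 to 5445 genes higher, 5074 to 5730 lower, 2016 to 2093 at least 4-fold higher and 2463 to 2574 at least 4-fold lower. The other alternatives stayed within 1.5 times. An alternative added after seeing the data kept the 12376 genes matched by symbol that share under 10% of their 50-base stretches, and gave 4180 genes higher and 4356 lower. Of 190 named genes, 159 kept direction and call under all alternatives run for them, 15 changed sign somewhere and 11 lost a call somewhere while keeping direction there. Gata6 and Slc2a1 changed sign and lost their call together with scaling by total reads (limma, adjusted p = 0.448 and 0.601), and are not among the 11. Holm adjustment was not among the alternatives run for single genes, so calls lost under it are not counted here. Some genes not called in the main test were called under an alternative. Among them were Acta2, Aplnr, B2m, Cd3e, Clec4f, Ednra, Foxf1, Gucy1a3, Itgam, Lpl, Lrat, Nr1h2 and Unc5b. With scaling by total reads the log2 fold change became 0.31 for Clec4f, 0.17 for Gata6, 0.95 for H2-Aa, 0.44 for Itgam, 0.33 for Lpl, 0.55 for Nr5a2, 1.05 for Pfkl, 0.50 for Rpl4, 0.92 for Rps3, 0.57 for Scarb1, 0.10 for Slc2a1 and 0.32 for Xcr1. With upper quartile scaling it was 0.18 for H2-Aa, 0.28 for Pfkl and 0.15 for Rps3. Leaving out 1 library changed the sign of some genes that were not called, whose log2 fold changes then ranged from -0.31 to 0.15 for H2-Aa, -1.12 to 1.63 for Hspa1b, -0.27 to 1.38 for Lrat, -0.13 to 0.059 for Pfkl, -0.36 to 0.0026 for Rps3 and -0.024 to 0.40 for Unc5b. The cause was not tested. No paired analysis was possible because the LSEC columns carry no replicate number from the labels. Depth limits genes near 1 read, which was worth 0.0247 to 0.0409 CPM.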
